A study of Epimedium pseudowushanense with 3 samples.

Results

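The transcripts described here are 223 seed transcripts of the perennial barberry relative Epimedium pseudowushanense that were lower once the embryo had grown and then stayed near that lower level until germination. They were chosen by their values at all 3 stages, from 178603 transcripts in the table. A member had a mean of at least 10 RPKM over the 3 libraries, a difference of -1 or lower in log2(RPKM + 1) at the first step, and a difference under 1 in size at the last step. RPKM counts reads for each kilobase of a transcript and each 1000000 reads mapped, and the pseudocount of 1 keeps weak values from giving large ratios. Every level and difference below belongs to those same 3 values, so it describes the members and tests nothing.

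Whole seeds were taken at 3 stages: when the embryo had started to grow (first stage), when it was longer than 0.5 of the seed (middle stage) and at germination. Each stage had 1 library of total RNA, sequenced as paired ends on an Illumina instrument, and no genotype, treatment or age beyond the stage is given in the labels. The first step is the middle stage minus the first, the last step is germination minus the middle stage, and the span is germination minus the first stage. No difference has a replicate check, and no p-value was computed. Seed lot and library preparation cannot be told apart from the stage.

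Seeds of this genus are shed with an embryo that has to grow inside the seed before it can emerge, a state called morphophysiological dormancy. Seeds are kept dormant by the hormone abscisic acid, while germination is promoted by gibberellins. The study was set up to find genes of both hormones over this period. As background from other plants, dry and imbibed seeds hold a store of messenger RNA made during seed maturation, part of which is broken down after imbibition while other transcripts are newly made. Whether the members belong to such a store is not known from these files, since the files do not pair identifiers with gene names. For the same reason roles are not given, 2 members are named by identifier, and the others are called by their rank.

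The libraries had summed RPKM of 538942 (first stage), 626584 (middle stage) and 615633 (germination). Above 0 RPKM were 134657, 148343 and 87582 transcripts in the same order. Of the 223 members, 222 were above 0 in the middle library and 222 in the germinating one. The depth in reads is unknown. It was estimated from the steps between low values, with only ratios near 1 considered. The estimate for the germinating library was 6.56% below the middle one, and that for the middle library against the first was 0%. Since ratios further from 1 were left out, a large difference in depth could not have been seen.

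As the rule required, the members lost most of their level at the first step and moved less at the last. Their median level was 35.5 RPKM at the first stage (interquartile range 23.4 to 65.9 RPKM), 12.8 RPKM at the middle stage (8.20 to 22.1 RPKM) and 9.88 RPKM at germination (6.35 to 17.1 RPKM). The median member held 39.3% of its first-stage RPKM at the middle stage and 28.9% at germination. In whole seeds, fewer cells that hold a transcript and less of it per cell cannot be told apart.

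**Figure D1:**
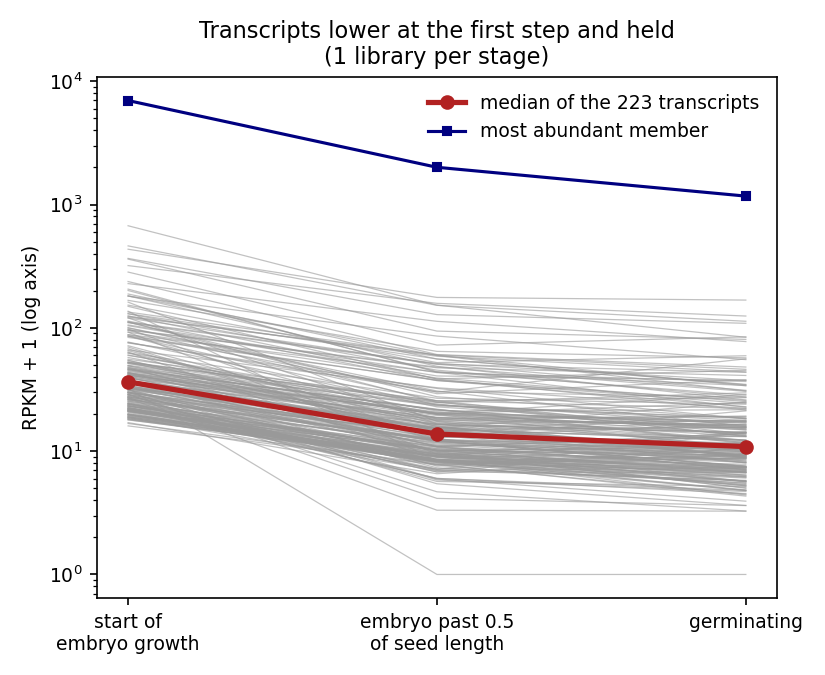
Level of each of the 223 members at the 3 stages, as RPKM + 1 on a log axis, with 1 grey line per transcript, the median in red and the most abundant member in blue. The median had 35.5, 12.8 and 9.88 RPKM, and the most abundant member stayed above all the others at every stage.

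Among the 7385 transcripts with a mean of at least 10 RPKM, 355 were lower by 1 or more at the first step, which is 4.81%. These 355 divided 3 ways at the last step. The members, which stayed within 1 of their middle level, made up 223 of them (62.8%). A further 116 (32.7%) were lower again by 1 or more, and 16 (4.51%) were higher again by 1 or more. Of all 7385 transcripts, 88.2% stayed within 1 at the last step. The share was 66.2% of the 1344 transcripts that were higher at the first step and 94.9% of the 5686 that had moved by less than 1. As deposited, early fallers and early risers thus had like shares of transcripts that kept their new level. Both shares lay below that of transcripts with a small first step. The fallers' share was higher after each rescaling (72.0% to 75.2%), and that of the risers was not computed there. The rule used these contrasts, so nothing further is read from the shares.

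**Figure D2:**
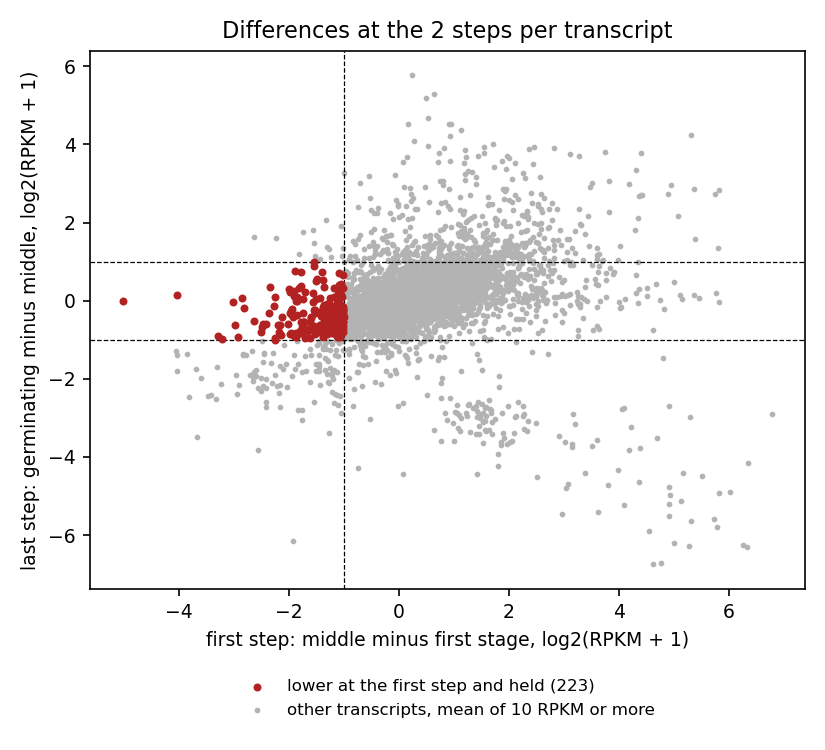
First-step difference (horizontal) and last-step difference (vertical) in log2(RPKM + 1) for the 7385 transcripts with a mean of at least 10 RPKM, members in red and the others in grey, with the limits of the rule as dashed lines. The 223 members fill the band left of -1 and between -1 and 1, and most of them lie close to the limit on the first step and below 0 on the last.

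The fall at the first step was moderate for most members. The median first-step difference was -1.28 in log2(RPKM + 1), with an interquartile range of -1.74 to -1.10. It lay between -1.5 and -1 for 143 members, between -2 and -1.5 for 53 and between -3 and -2 for 22. A fall of 3 or more was seen in 5 members, and 2 of these fell by 4 or more. Over all 7385 transcripts of this abundance the median first-step difference was 0.30 as deposited. It was only 0.09 to 0.19 after the 3 rescalings described further on, so its size depended on the scaling. In the deposited values the rule thus picked transcripts that moved against the direction of most abundant ones.

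The most abundant member, comp48155_c0_seq1, stood far above the rest. It had 6971 RPKM at the first stage, 2004 RPKM at the middle stage and 1170 RPKM at germination. By level it ranked 2 of all transcripts at the first stage, 14 in the middle library and 31 in germinating seeds. Its difference was -1.80 at the first step and -0.78 at the last, in log2(RPKM + 1). At germination it held 16.8% of its first-stage RPKM, less than the median member.

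This transcript weighed heavily in the summed level of the group. It held 33.3% of the members' summed RPKM at the first stage, 29.7% in the middle library and 24.0% in germinating seeds. Together the members held 3.89% of the summed RPKM of the library at the first stage, 1.08% in the middle library and 0.792% in germinating seeds. Without comp48155_c0_seq1 these shares were 2.59%, 0.758% and 0.602%. With this transcript the sum was 32.3% of its first-stage value at the middle stage and 23.3% at germination. Without it the sum was 34.0% and 26.5%. The rule keeps every member below its first-stage level at both later stages, so the sum had to decline either way. Only the size of the decline is described here.

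The next 7 members by first-stage level lay far below the first, which had 10.4 times the first-stage RPKM of the second. The second had 672 RPKM at the first stage, 152 RPKM at the middle stage and 82.9 RPKM at germination. The third had 461, 151 and 112 RPKM in stage order. The fourth had 433, 176 and 167 RPKM. Both the third and the fourth were above 100 RPKM at every stage, and the fourth had nearly the same level in the middle and germinating libraries, with a last-step difference of -0.07.

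The fifth had 365 RPKM at the first stage, 127 RPKM at the middle stage and 108 RPKM at germination. The sixth had 360, 93.1 and 79.6 RPKM. The seventh had 319, 157 and 124 RPKM. The seventh was close to the limit of the rule, with a first-step difference of -1.02. The eighth had 282, 71.5 and 83.5 RPKM, and of these 8 it alone was above its middle level at germination as deposited, by 0.22 in log2(RPKM + 1). After median-of-ratios or trimmed-mean rescaling 4 of the 8 were above it, and with equal sums 1 was. Under this group of 8, the other 215 members had a first-stage level between 15.03 and 236 RPKM, with a median of 33.2 RPKM.

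Of the members, 36 reached 100 RPKM at the first stage, 7 in the middle library and 5 in germinating seeds. Among the 1000 most abundant transcripts of each library were 56 members at the first stage, 9 in the middle library and 5 in germinating seeds. Most members stayed at several RPKM, which the minimum mean favours. At 5 RPKM or more there were still 215 members in the middle library and 192 in the germinating one, and 111 of the germinating values were at 10 RPKM or more.

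The deepest fall was that of a transcript with 31.3 RPKM at the first stage that was listed at 0 RPKM in both later libraries. It is the single member listed at 0 in any library, and no fold is given for it. The next deepest was comp53503_c0_seq1, with 135 RPKM at the first stage, 7.34 RPKM at the middle stage and 8.15 RPKM at germination. Its differences were -4.03 at the first step and 0.13 at the last, so that it held 5.42% and then 6.02% of its first-stage level. The later levels of this transcript thus lay close together as deposited and far below the first.

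The third deepest had 91.3 RPKM at the first stage, 8.47 RPKM at the middle stage and 4.05 RPKM at germination. The fourth had 161, 16.4 and 7.84 RPKM. The fifth had 25.9, 2.32 and 2.26 RPKM. Of these, the third and the fourth came close to being lower at both steps, with last-step differences of -0.91 and -0.98, while the fifth barely differed between the later libraries (-0.03). Levels of a few RPKM may rest on few reads, and transcript lengths were not used here.

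The sixth deepest had 96.9, 11.4 and 7.06 RPKM in stage order. The seventh had 62.7, 7.40 and 3.41 RPKM. The eighth had 119, 15.7 and 16.7 RPKM. All 8 were below 20 RPKM in both later libraries, and 7 of them had more than 2 RPKM there.

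**Figure D3:**
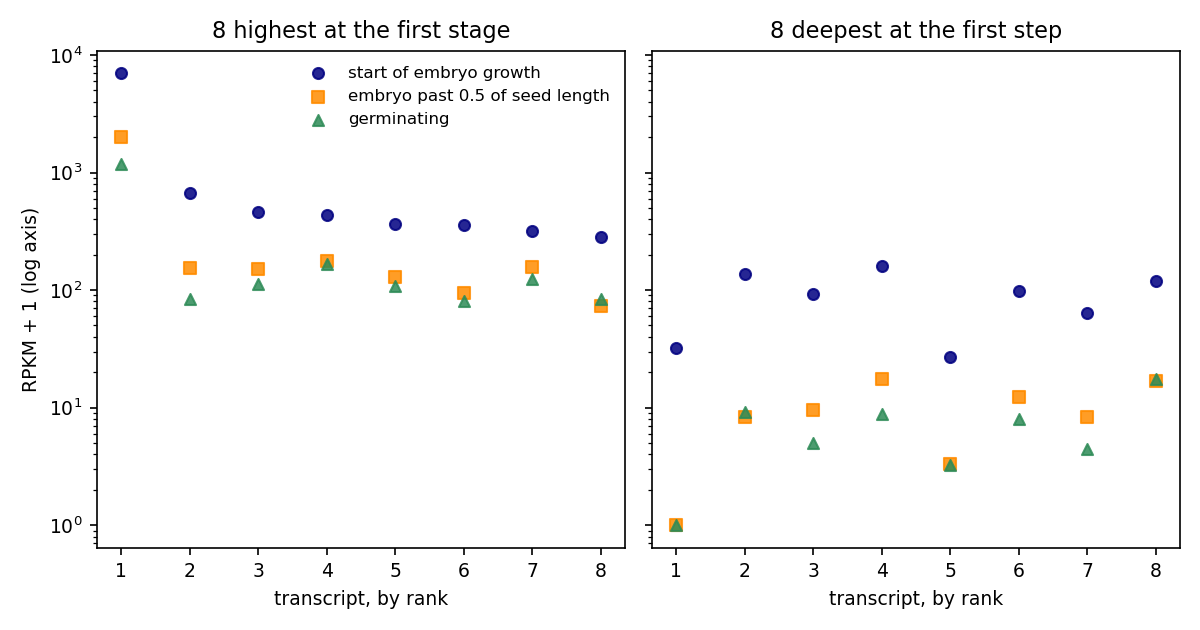
RPKM + 1 on a log axis at the first stage (circles), the middle stage (squares) and germination (triangles) for the 8 members highest at the first stage (left) and the 8 with the deepest first-step fall (right), by rank. In all 16 the first-stage value is the highest, and in several the later values nearly coincide, as in the second deepest (135, then 7.34 and 8.15 RPKM).

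Of the members, 27 fell by 2 or more at the first step. Their median level was 66.7 RPKM at the first stage, 8.97 RPKM at the middle stage and 6.53 RPKM at germination. They held a median of 16.6% of their first-stage RPKM at the middle stage and 9.79% at germination. Besides those already given, a member with 84.99, 17.2 and 18.2 RPKM in stage order was among the 4 of these whose later levels were most alike, with a last-step difference of 0.08.

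Members that began at 50 RPKM or more fell further than weaker ones. The 36 members with 100 RPKM or more at the first stage had a median first-step difference of -1.60, and the 37 with 50 up to 100 RPKM had -1.51. The 88 with 25 up to 50 RPKM had -1.20, and the 62 below 25 RPKM had -1.21. The rule bears on this order, since the minimum mean of 10 RPKM limits how far a weak transcript could fall and still be a member. None of the 62 weakest fell by 2 or more (0 members), against 8 of the 36 most abundant.

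After the early fall the members' levels mostly continued slightly downward in the deposited values. The median last-step difference was -0.40 in log2(RPKM + 1), with an interquartile range of -0.63 to -0.15. Of the 223 members, 184 (82.5%) were below their middle level at germination, 38 were above it and 1 was equal. The share below 0 among all 7385 transcripts was 42.2%, with a median last-step difference of 0.08 and an interquartile range of -0.22 to 0.41. By size, 94 members were lower by 0.5 or more, 119 stayed within 0.5 and 10 were higher by 0.5 or more. The members stayed within 0.1 of their middle level in 18 cases. These counts by size were not made over all 7385 transcripts.

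The size of this slight decline depended on how the libraries were scaled, while its gap to all 7385 transcripts hardly moved. Median-of-ratios rescaling sets each library by its median ratio to the mean profile, over transcripts above 0 in every library. It raised the median last-step difference of all 7385 transcripts from 0.08 to 0.40 and moved that of the members to -0.10. Trimmed-mean rescaling, which averages the log ratios after removing the extremes, gave medians of -0.12 for the members and 0.37 for all. The members below 0 then numbered 134 and 141 of 223, while 18.5% and 19.96% of all 7385 were below 0. With equal sums the members' median was -0.37 and 182 were below 0. The members' median minus that of all 7385 was -0.48 as deposited and with equal sums, and -0.50 after the other rescalings. Under each of these scalings at least 217 of the 223 were still within 1 at the last step. Since the rule chose the members for this, the count is no check that they were held. The rescalings move all transcripts of a library nearly alike, and each moved the median first step of the members further down.

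**Figure D4:**
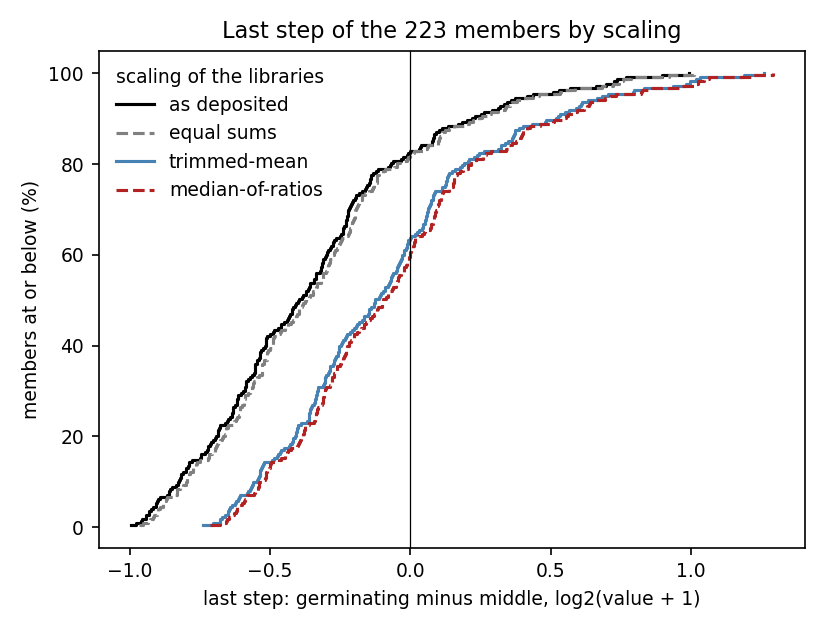
Cumulative share of the 223 members (vertical, percent) at or below each last-step difference (horizontal, log2 of value + 1) for values as deposited and after 3 rescalings. The curves as deposited and with equal sums cross 0 above 80%, and those after trimmed-mean and median-of-ratios rescaling lie to the right, with medians of -0.12 and -0.10.

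Over the whole span 206 of the 223 members were lower by 1 or more, and 72 were lower by 2 or more. Of all 7385 transcripts, 9.83% were lower by 1 or more, and the count at 2 or more was not made. The rule alone puts a member at or below its middle level at germination (184 below, 1 equal) among the 206. The contrasts with all 7385 transcripts here thus follow largely from the rule. The median span difference was -1.70, with an interquartile range of -2.16 to -1.40. Over all 7385 transcripts that range was -0.28 to 1.13. The other 17 members were above their middle level at germination, which follows from the rule for a member with a span above -1. In these 17 the median level was 26.6 RPKM at the first stage, 9.84 RPKM at the middle stage and 13.4 RPKM at germination. At germination they held a median of 55.3% of their first-stage RPKM, with the highest at 77.6%.

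The 4 members with the highest last-step differences were partway back to their first-stage level at germination. The first had 19.7 RPKM at the first stage, 6.12 RPKM at the middle stage and 13.2 RPKM at germination. The second had 86.9, 29.1 and 55.1 RPKM. At germination they held 67.0% and 63.4% of the first-stage RPKM, with last-step differences of 0.99 and 0.90, close to the limit of 1. The third had 23.9, 5.77 and 10.5 RPKM, and the fourth had 32.5, 11.7 and 20.2 RPKM.

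At the other end, the members with the lowest last-step differences continued to decline. One had 46.6 RPKM at the first stage, 8.97 RPKM at the middle stage and 4 RPKM at germination, with a last-step difference of just above -1 (-0.996). The second was the fourth deepest member at the first step, given above. The third had 99.3, 29.8 and 14.8 RPKM, and the fourth had 181, 58.7 and 29.8 RPKM. In these 4 the level at germination was about as far below the middle level as the rule allowed.

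The limits of the rule cut through a continuous range of values. Just inside the first-step limit was a transcript with 46.4, 22.7 and 16.7 RPKM in stage order (-1.0015), and just outside was one with 23.3, 11.1 and 8.80 RPKM (-0.998). Just outside the lower limit on the last step was one with 19.2, 8.16 and 3.58 RPKM, whose difference was -1. Just outside the upper limit was one with 37.7, 13.0 and 27.7 RPKM (1.04). For the minimum mean, the nearest member had a mean of 10.02 RPKM and the nearest transcript outside it 9.92 RPKM.

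Compared with the 116 transcripts that were lower at both steps, the members began at a lower level. The median first-stage level was 35.5 RPKM in the members and 122 RPKM in those lower at both steps. The median first-step difference was -1.28 in the members and -1.83 in those lower at both steps, and the rule bears on both values, since a transcript lower at both steps needs a higher first-stage level to reach a mean of 10 RPKM. At germination the median was 9.88 RPKM in the members and 5.95 RPKM in those lower at both steps, or 28.9% and 6.51% of the first-stage RPKM. The 16 transcripts that returned had medians of 27.2, 9.50 and 25.03 RPKM in stage order.

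The members were the larger group by number but not by level. Of the 46183 RPKM by which all 355 early fallers together were lower at the middle stage, the members accounted for 14188 RPKM (30.7%). The 116 transcripts lower at both steps accounted for 31671 RPKM (68.6%). Without comp48155_c0_seq1 the members' part was 9221 RPKM, or 19.97% of the same total.

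How often an early faller was held differed with the size of its fall. Of the 199 transcripts that fell by 1 to 1.5, 143 were held (71.9%), and of the 75 that fell by 1.5 to 2, 53 were held (70.7%). Of the 81 that fell by 2 or more, 27 were held (33.3%) and 52 were lower again. It also differed with the first-stage level. The held share was 87.3% of 71 transcripts below 25 RPKM, 73.3% of 120 from 25 up to 50 RPKM, 60.7% of 61 from 50 up to 100 RPKM and 35.0% of 103 at 100 RPKM or more. The minimum mean limits these shares, since a weak transcript that was lower at both steps would often fall short of a mean of 10 RPKM. Size of fall and first-stage level were not crossed here, so their parts in the held share cannot be told apart.

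**Figure D5:**
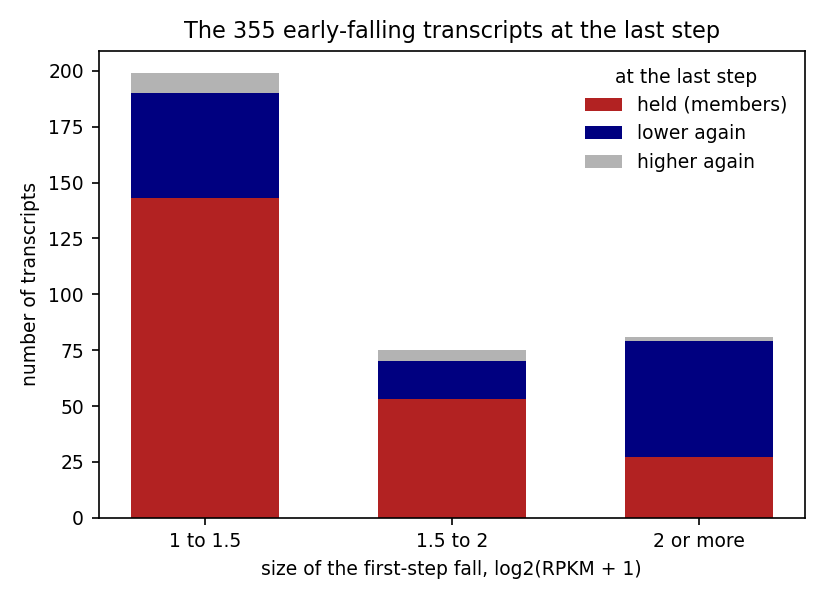
Number of the 355 early-falling transcripts by the size of the first-step fall in log2(RPKM + 1), split by what they did at the last step: held (members, red), lower again (blue) or higher again (grey). Held transcripts are 143 of 199 in the smallest class and 27 of 81 in the largest.

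The identifiers were not used by the rule. They hold a first number, a second number for a part of it, and a sequence number. Each of the 178603 transcripts has its own pair of first and second number. The sources used here do not say what sets these numbers. The sequence number was above 1 for 57 of the 223 members (25.6%), for 21 of the 116 transcripts lower at both steps (18.1%) and for 1287 of all 7385 (17.4%). The first number was also unevenly spread. When the 7385 transcripts were divided by this number into 4 bins of like size, the members counted 45, 38, 55 and 85 from the lowest bin to the highest. Those lower at both steps counted 47, 32, 22 and 15.

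Early fallers with high first numbers were thus more often held. The held share of the early fallers was 47.9%, 52.1%, 66.3% and 81.0% from the lowest bin to the highest. The bins differed in level too, with a median mean level of 25.5 RPKM in the lowest and 20.7 RPKM in the highest. Among early fallers below 50 RPKM at the first stage the held share was 70.7%, 66.7%, 75.6% and 88.6% from the lowest bin to the highest, so the second bin lay below the first. Among those at 50 RPKM or more it was 30.2%, 41.9%, 57.1% and 57.7%. The division into bins was chosen after the values were seen, and its difference between the groups was not tested.

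The members' first numbers were 221 distinct ones, so 2 pairs of members share one and may not be independent of each other. In one pair the first had 461, 151 and 112 RPKM in stage order and the second had 18.9, 7.37 and 4.73 RPKM. In the other pair the first had 23.9, 5.77 and 10.5 RPKM and the second had 28.01, 7.50 and 13.1 RPKM. Each pair thus had like courses, a slight further decline in the first pair and a partial return in the second.

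For 26 of the 221 first numbers the table lists more than 1 transcript, with 32 partners that are not members. The whole table holds 178603 transcripts under 177404 first numbers. How often the first numbers of all 7385 abundant transcripts have partners was not counted. Of the 13 partners with at least 1 RPKM in every library, 10 had a first-step difference below 0, against 37.9% of all 17367 transcripts at that level. Among the 10 were differences as small as -0.01 and -0.09, and the partners above 0 had 0.78, 0.56 and 0.13. These partners are few, and their share against that of all was not tested. Of the 32, 3 met both step limits but not the minimum mean. Not all partners followed the members, however. One partner, which is the one at -0.01 among the 10, had 53.3, 52.9 and 50.2 RPKM in stage order. It stood beside a member with 236, 59.8 and 47.1 RPKM. The partner's level hardly differed between the libraries, while the member's was lower by 1.97 at the first step and so came down to about the partner's level.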

How the data were processed

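Per the labels' protocols, RNA was extracted from seeds with TRIzol and sequenced in pairs on an Illumina instrument. The authors deposited RPKM values per transcript, printed to 2 decimals, and R 3.1.0 appears in the submitters' processing notes. Assembler, aligner, counting rule, strand and filters: not given in the sources used here. Because RPKM is relative to a library's total, a few abundant transcripts can lower all others.

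Columns were matched to libraries by title. Differences were computed as log2(RPKM + 1) with Python 3.11.15, numpy 2.4.6 and pandas 2.3.3, with no filter other than the mean of 10 RPKM. The pseudocount of 1 makes changes of weak transcripts look smaller. Transcripts described singly were the highest and deepest members, the extremes of the last step, the deep members nearest 0 there and those next to each limit; as the files hold no gene names, 2 identifiers are printed. Members, rules and lists were chosen with earlier results of these data known. Alternatives covered the pseudocount, every limit of the rule and 3 rescalings. With 1 library per stage, depth in reads unknown and no replicates, no error is given.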

Additional observations from a re-analysis of the deposited data

How the results depend on the processing

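Counts are given as members, then members lower by 1 or more over the span, then the held share of early fallers. With a minimum mean of 5 RPKM there were 351 members and 324 lower over the span. With 20 RPKM there were 112, 104 and 52.8%, and with no minimum 2695, 2306 and 92.5%. A first-step limit of 2 gave 27, 27 and 33.3%, and one of 0.8 gave 368, 311 and 71.9%. A last-step limit of 0.5 gave 119, 110 and 33.5%, and one of 1.5 a held share of 76.6%. These settings change the number by construction. Median-of-ratios rescaling gave a held share of 72.0% (313 members, 213 of them among the 223). Trimmed means gave 395, 335 and 75.2%, with 219 of the 223 kept, and equal sums gave 383, 347 and 72.5%, with 222 kept. Pseudocounts of 0.1 and 5 gave 238 and 160 members, with 215 and 128 of the 223 kept. Of the 24 members picked by the naming rule, 18 and 23 were still members with pseudocounts of 0.1 and 5, 19 with a minimum mean of 20 RPKM, and 11 each with a first-step limit of 2 and a last-step limit of 0.5. They numbered 19, 20 and 23 after rescaling by median ratios, trimmed means and equal sums. No paired analysis was possible because each stage has 1 library; for the same reason no replicate could be left out. Levels of a few RPKM rest on an unknown number of reads.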
